A study of Capra hircus with 12 samples.

Results

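The miRNAs described here are those named for immune cells and inflammation: chi-miR-146a, chi-miR-146b-5p, chi-miR-146b-3p, chi-miR-155-5p, chi-miR-150, chi-miR-223-3p and chi-miR-223-5p. They were taken by name, as every listed arm of the miR-146a, miR-146b, miR-155, miR-150 and miR-223 genes, and made up 7 of the 376 miRNAs in the count table. miR-142 was not analysed here. All 7 had counts in each of the 12 libraries and passed the filter on low counts, which left 300 miRNAs to test.

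A miRNA is a short RNA that holds down the messenger RNAs it pairs with, and a few miRNAs are made mainly by cells of the blood and immune system. The transcription factor NF-kB, which switches on inflammatory genes, also switches on miR-146a and miR-155: miR-146a then damps the signal by targeting the adaptors TRAF6 and IRAK1, whereas miR-155 promotes activation of lymphocytes and macrophages. miR-150 is abundant in resting mature lymphocytes and targets the transcription factor MYB, and miR-223 is the characteristic miRNA of neutrophils and other myeloid cells. In skin, such cells surround the hair follicle, whose resting phase is telogen, whose growth phase is anagen and whose regression phase is catagen.

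The libraries were small RNA libraries of secondary hair follicles, the follicles that grow cashmere, dissected from the back skin of Liaoning cashmere goats aged 1.5 years. No group was treated or carried an introduced allele. By the labels the groups differed in month only, with female and male libraries in equal number in each. Telogen was represented by February and March (n = 4 libraries), early anagen by May (n = 2), mid-anagen by September (n = 2) and catagen by November and December (n = 4), with 1 female and 1 male library in each of the 6 months. The paper's methods name several goats of each sex at each time point, but whether a library held 1 goat or several was not given. The p-values therefore measure the spread between these libraries. A phase cannot be told apart from the months in which it was sampled.

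Between 3135292 and 5788032 counts were assigned to miRNAs per library (median 4469050). The deposited TPM values equalled counts scaled to the same total in every library, without a correction for length. Epidermal miRNAs (miR-203, the miR-200 family) summed to between 56735 and 96687 TPM. Those listed as dermal mesenchyme (miR-143, miR-145, miR-199, miR-214) summed to between 118320 and 148890, so miRNAs of both lists were abundant. The largest part of the second sum was miR-143-3p (67084 to 110365 TPM). The paper located miR-143-3p in the hair matrix by in situ hybridization, so this list does not stand for mesenchyme alone. Red blood cell miRNAs (miR-451-5p and miR-144-5p) summed to between 5.41 TPM in the female November library and 115.41 in the male March library. Endothelial miR-126 arms summed to between 8819 and 12699 TPM, and skeletal muscle miRNAs to between 1809 and 3550. In bulk tissue of this kind, fewer cells of a type and less RNA per cell cannot be told apart.

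The members spanned about 3 orders of magnitude. chi-miR-146b-5p was the most abundant, with a mean of 10710 ± 4208 TPM (SD, n = 12) and rank 18 of 376. It held between 64.32% and 93.68% of the summed TPM of the 7 miRNAs. chi-miR-146a had 629.5 ± 311 TPM (rank 72), chi-miR-155-5p 315.6 ± 49.24 (rank 86), chi-miR-146b-3p 157.7 ± 71.28 (rank 104) and chi-miR-150 128.5 ± 35.32 (rank 112). The miR-223 arms were the scarcest, with 33.72 ± 23.29 TPM for chi-miR-223-3p (rank 163) and 10.96 ± 6.225 for chi-miR-223-5p (rank 225). The lowest chi-miR-223-5p count was 20 in the male May library, equal to 6.38 TPM with a 95% Wilson interval of 4.13 to 9.85 that covers counting error only. Across libraries, the highest chi-miR-223-3p value was 10.02 times the lowest, against 1.566 times for chi-miR-155-5p.

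**Figure D1:**
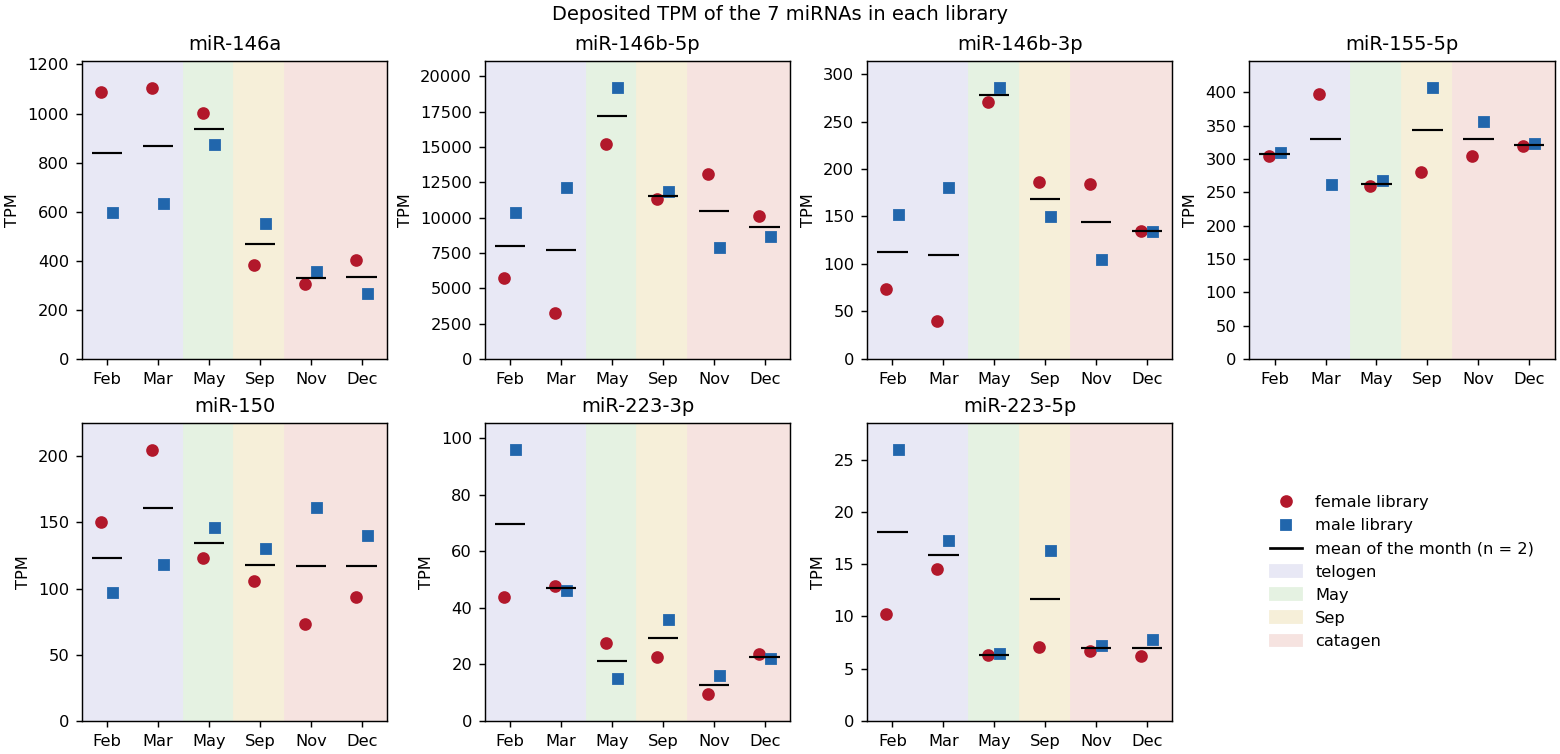
Deposited TPM (vertical axes, from 0, one scale per panel) of the 7 miRNAs by month, with circles for female and squares for male libraries and black bars for the mean of the month (n = 2). In TPM miR-146a was high from February to May, both miR-146b arms were highest in May (after TMM they were highest in the female November library), and miR-155-5p stayed between 259 and 406 TPM. The miR-223 arms had their highest monthly means in telogen, but for miR-223-5p the male September library was above both female telogen libraries.

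A miRNA was called differentially expressed (DE) where edgeR's quasi-likelihood test gave a Benjamini-Hochberg adjusted p below 0.05 and a change of at least 2-fold. Fold changes are on the log2 scale after TMM normalization. From telogen to May 2 of the 7 were called (7 of 300 miRNAs, 2.33%), from May to September 1 (18.3% of 300), from September to catagen 0 (0%), from catagen to telogen 2 (10.7%), from telogen to September 0 (9.33%) and from May to catagen 0 (16.7%). The members' share lay above the background from telogen to May and from catagen to telogen, and at or below it in the other 4 comparisons. Both calls from telogen to May were arms of the same precursor. From September to catagen no member had an unadjusted p below 0.05, against 23 of 300 miRNAs, and DESeq2 called 1 miRNA and no member. For the other comparisons without a call, 2 members each had an unadjusted p below 0.05, and DESeq2 called no member. The median log2 fold change of the 7 was -0.31 from telogen to May and -0.05 from catagen to telogen. Over all tested miRNAs it was -0.00104 and 0.00064. Members moved in both directions in each comparison, but from telogen to May only the miR-146b arms rose (0.97 and 1.17).

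**Figure D2:**
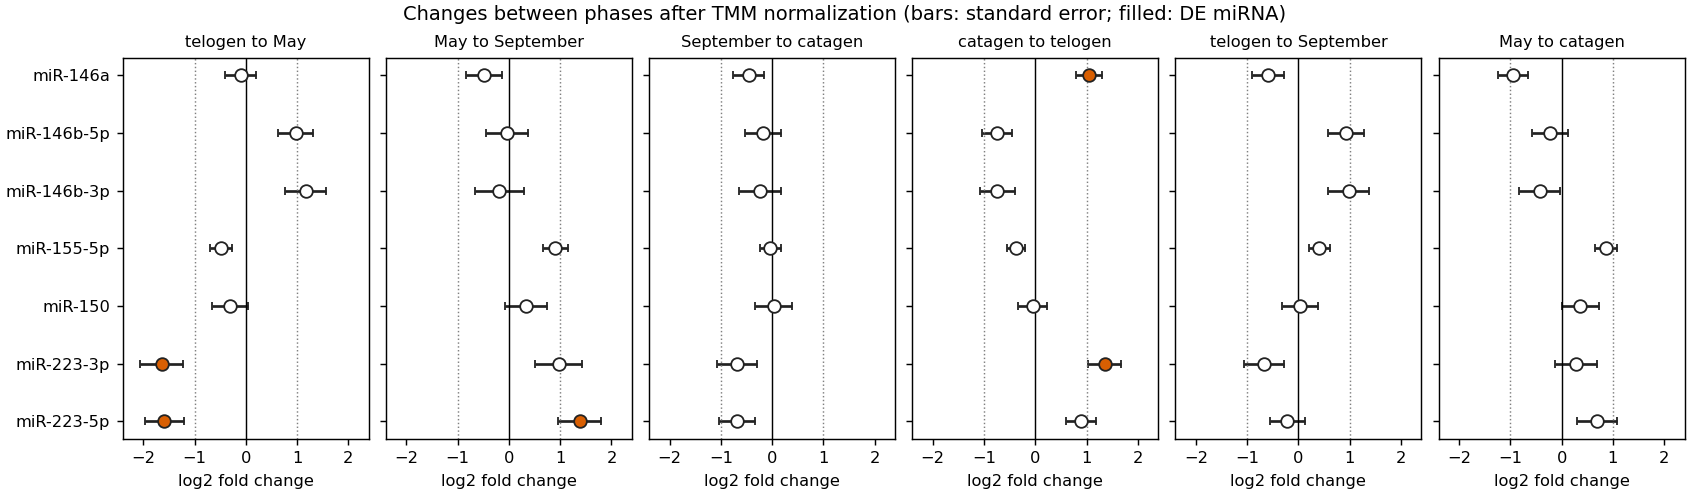
Log2 fold change of each miRNA (horizontal axis, dotted lines at 2-fold) in the 6 comparisons between phases, with bars for the standard error and filled points for DE miRNAs. The filled points are miR-223-3p and miR-223-5p from telogen to May, miR-223-5p from May to September, and miR-146a and miR-223-3p from catagen to telogen.

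Among the NF-kB-induced miRNAs, miR-146a was higher in telogen than in catagen. chi-miR-146a had 1086 TPM in female February, 596 in male February, 1104 in female March and 631 in male March. The May libraries had 1002 (female) and 873 (male), and the September libraries 384 (female) and 551 (male). In catagen it had 307 TPM in female November, 356 in male November, 401 in female December and 263 in male December. In TPM every telogen and May library was thus above every September and catagen library. After TMM the male September library (604 CPM) was above the male February (521) and male March (513) libraries, while telogen and catagen still did not overlap. It was called from catagen to telogen, with 1.04 on the log2 scale (standard error 0.25, adjusted p = 0.00755), close to the 2-fold limit. With sex as a block it was under that limit (0.99, adjusted p = 0.00512), as it was when female February (0.86), female March (0.91) or male December (0.93) was left out. From May to catagen chi-miR-146a was lower by a log2 fold change of -0.94 (adjusted p = 0.0242), under the 2-fold limit, and scaling by library totals moved it past the limit (-1.50, adjusted p = 0.000915). The paper placed miR-146a in a cluster of DE miRNAs that peaked in May and decreased in the phases after it. Between May and September chi-miR-146a did not overlap, in TPM or after TMM, but was not called (-0.49, standard error 0.35, adjusted p = 0.309). Library totals led to a call in that comparison (-1.004, adjusted p = 0.0265). In order of mean TPM the levels were May (938 ± 91.3 TPM), telogen (854 ± 278), September (467 ± 118) and catagen (332 ± 59.7), and no pair of neighbours in that order differed by the test.

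miR-146b, whose mature 5p arm is nearly identical to miR-146a and shares its seed, followed another order. chi-miR-146b-5p had 5699 TPM in female February, 10300 in male February, 3259 in female March and 12102 in male March. It had 15208 (female) and 19164 (male) in May and 11288 (female) and 11837 (male) in September. In catagen it had 13111 in female November, 7829 in male November, 10082 in female December and 8652 in male December. In TPM the May libraries were above all others. After TMM the female November library was highest (16129 CPM), the female May library (12179) was below both September libraries (13312 and 12977), and the change from May to September was -0.04 (adjusted p = 0.939). The 4 telogen libraries ranged over 3.713-fold in TPM, the widest spread of this arm within a group. From telogen to May it had a log2 fold change of 0.97, with a standard error of 0.35, and the groups did not overlap, but the adjusted p of 0.0959 missed the threshold. chi-miR-146b-3p, the other arm of the same hairpin, had 1.17 (standard error 0.40, adjusted p = 0.0895). DESeq2 called chi-miR-146b-3p (1.13, adjusted p = 0.0478) and not chi-miR-146b-5p (0.93, adjusted p = 0.067). Without the male March library the edgeR test called both, at 1.47 (adjusted p = 0.0214) and 1.24 (adjusted p = 0.0261). From catagen to telogen chi-miR-146b-5p had a log2 fold change of -0.75 (adjusted p = 0.0652), opposite in sign to chi-miR-146a. How reads that fit both miR-146a and miR-146b-5p were assigned was not given in the sources used here.

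chi-miR-146b-3p had 73.4 TPM in female February, 151 in male February, 40.1 in female March and 180 in male March. The May libraries had 270 (female) and 285 (male), and the September libraries 186 (female) and 150 (male). The catagen libraries had 184 (female November), 104 (male November), 134 (female December) and 134 (male December). As for the 5p arm, the May libraries were above all others in TPM only. After TMM the female November library was highest (226.4 CPM). The May mean was still the highest of the months, at 218.9 CPM against 192.0 in September (13540 against 13140 for the 5p arm). The change from May to September after TMM was -0.19 (adjusted p = 0.786). The ratio of the arms hardly moved: the mean log2 ratio of 5p to 3p counts was 6.19 ± 0.13 in telogen (SD, n = 4) and 6.15 ± 0.10 in catagen (n = 4), a difference of 0.039 (exact permutation test, two-sided, p = 0.686).

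miR-155 was the steadiest of the 7 in TPM. chi-miR-155-5p had 305, 309, 397 and 261 TPM in the telogen libraries of female February, male February, female March and male March. It had 259 (female) and 267 (male) in May, 280 (female) and 406 (male) in September, and 304, 356, 319 and 323 in female November, male November, female December and male December. After TMM it was higher in September than in May by 0.90 on the log2 scale (standard error 0.24, adjusted p = 0.0134) and in catagen than in May by 0.87 (standard error 0.22, adjusted p = 0.00781), both under the 2-fold limit. With library totals these were 0.38 (adjusted p = 0.185) and 0.31 (adjusted p = 0.205). The TMM factors of the May libraries were 1.25 and 1.29, against 0.813 to 0.916 in September and catagen, and library totals moved the median of all tested miRNAs from May to September to -0.46 and from May to catagen to -0.47. In TPM, which is the share of all counts, the May libraries were still below every September and catagen library. Without the female September library the value from May to September was 1.101 (adjusted p = 0.0261), past the limit, and without the male September library it was 0.67 (adjusted p = 0.106).

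The lymphoid miR-150 was not called between any phases. chi-miR-150 had 150 TPM in female February, 96.6 in male February, 204.6 in female March and 118 in male March. It had 123 (female) and 145.8 (male) in May and 106 (female) and 130 (male) in September. In catagen it had 72.9 in female November, 161 in male November, 94.0 in female December and 140 in male December. In TPM the phases overlapped in all 6 comparisons, the group means lay between 117 and 142.3 TPM, and the log2 fold changes lay between -0.31 and 0.36. From catagen to telogen the value was -0.05 (standard error 0.29, adjusted p = 0.884), and its sign depended on the scaling, with 0.28 after scaling by library totals. In telogen and catagen the female and male libraries of a month stood apart, by between 1.488 and 2.212 times in TPM, against 1.185 and 1.231 times in May and September.

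The mean levels of both arms of the myeloid miR-223 were highest in telogen. chi-miR-223-3p had 43.7 TPM in female February, 95.7 in male February, 47.7 in female March and 46.0 in male March. It had 27.6 (female) and 14.7 (male) in May and 22.8 (female) and 35.8 (male) in September. In catagen it had 9.55 in female November, 15.7 in male November, 23.8 in female December and 21.7 in male December. In TPM the lowest telogen library was above every library of the other phases. After TMM the male September library (39.2 CPM) was above the male March library (37.3), and from telogen to September the miRNA was not called (-0.67, adjusted p = 0.217). chi-miR-223-3p was called from catagen to telogen at 1.36 on the log2 scale (standard error 0.32, adjusted p = 0.00722). This call was made in all 19 alternatives in which the miRNA was tested, with values from 1.04, without the male February library, to 1.71, with library totals. chi-miR-223-5p, the less abundant arm, was higher in telogen by 0.90 (standard error 0.29, adjusted p = 0.0316), under the 2-fold limit, and passed it with library totals (1.27, adjusted p = 0.00929).

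From telogen to May the miR-223 arms fell together, by 1.64 on the log2 scale for chi-miR-223-3p (standard error 0.42, adjusted p = 0.0388) and by 1.59 for chi-miR-223-5p (standard error 0.38, adjusted p = 0.0341). The groups did not overlap for either arm. chi-miR-223-5p had 10.2, 25.9, 14.5 and 17.2 TPM in female February, male February, female March and male March, against 6.29 and 6.38 in the female and male May libraries. The calls were near the threshold. Both were lost with library totals (adjusted p = 0.0709 for the 3p and 0.0639 for the 5p arm), with no filter on low counts (0.0544 for both) and in a fit of telogen and May alone (0.151 and 0.118). The chi-miR-223-3p call was lost 9 times and the chi-miR-223-5p call 5 times when each of the 12 libraries was left out in turn, with values from -2.05 to -1.24 for chi-miR-223-3p. Without the male February library both had an adjusted p of 0.0633.

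chi-miR-223-5p then was higher in September, at 7.04 (female) and 16.2 (male) TPM, a change from May of 1.38 on the log2 scale (standard error 0.42, adjusted p = 0.0244). Without the male September library it was 0.73 (adjusted p = 0.26), and with library totals 0.87 (adjusted p = 0.15). Leaving out the male March library (1.24, adjusted p = 0.0545), the female May library (1.18, adjusted p = 0.196) or the male May library (1.34, adjusted p = 0.12) also ended the call. chi-miR-223-3p had 0.97 in the same comparison (adjusted p = 0.121). In catagen chi-miR-223-5p had between 6.22 and 7.76 TPM. Its telogen and September libraries overlapped, and it was not called between them (-0.21, adjusted p = 0.655). With each of the 6 months as its own group, chi-miR-223-3p was the only member that differed between months (adjusted p = 0.0176), 1 of 7 against 31.7% of the tested miRNAs.

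Of the red blood cell miRNAs miR-451-5p was also called higher in telogen. miR-451-5p had between 16.7 and 77.2 TPM in telogen and between 3.61 and 19.6 in catagen, a difference of 1.45 on the log2 scale (standard error 0.52, adjusted p = 0.0476) that was called in 9 of 19 alternatives, and miR-144-5p had 1.56 (adjusted p = 0.0552). The summed level of this list, of which 2 of 2 were tested and 1 was called, was 27.9 to 115 TPM in telogen and 5.41 to 26.4 in catagen, and neither miRNA was at 0 in any library. miR-451-5p peaked in the male March library and miR-223-3p in the male February library. Without the male March library miR-223-3p was higher in telogen by 1.55 (adjusted p = 0.00411). The part of blood in the miR-223 and miR-146a differences was not tested.

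The sexes were set against each other within months, and 0 of 7 members and 0 of 300 miRNAs were called (0%). No member had an unadjusted p below 0.05, against 34 of 300 miRNAs, and DESeq2 called 0 miRNAs. The largest difference was chi-miR-223-5p, higher in the male library by TPM in 6 of 6 months, with a log2 difference of 0.49 after TMM (adjusted p = 0.414). After TMM it was higher in the male library in 4 of 6 months.

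For some members the sexes differed in opposite directions in telogen and catagen. In the test of that change (male minus female in telogen, less the same in catagen) 3 of the 7 members were called, against 10 of 300 miRNAs (3.33%). Apart from chi-miR-150, these calls were the arms of the same precursor, miR-146b, and so are not separate. chi-miR-150 had a value of -1.81 (standard error 0.27, adjusted p = 0.0045): the male library was lower than the female library in February (log2 difference -0.82 after TMM) and March (-1.04) and higher in November (1.08) and December (0.66). In May and September the differences were 0.20 and 0.19. The call was made in all 18 alternatives, with values from -2.0 to -1.57 and adjusted p up to 0.0343. With 1 library of each sex per month, a difference between the sexes and one between the animals of those libraries cannot be told apart.

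The miR-146b arms moved the other way. chi-miR-146b-5p had a value of 1.59 (standard error 0.36, adjusted p = 0.0464) and chi-miR-146b-3p of 1.74 (standard error 0.42, adjusted p = 0.0498). The male library had more chi-miR-146b-5p in February (log2 difference 0.67) and March (1.65) and less in November (-0.80) and December (-0.14). For chi-miR-146b-3p the differences were 0.85, 1.92, -0.88 and 0.079, so the male library was lower in November only. Each arm was called in 7 of 18 alternatives. RLE normalization gave adjusted p of 0.0593 and 0.0708, no filter on low counts gave 0.0684 for both, and leaving out any library but female February, male February or female December also ended both calls. Without the female March library chi-miR-146b-5p had 1.09 (adjusted p = 0.198). The other members were not called: chi-miR-146a had -0.88 (adjusted p = 0.0999), chi-miR-155-5p had -0.64 (adjusted p = 0.185), and the miR-223 arms had 0.25 and 0.37 (adjusted p = 0.847 and 0.707).

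**Figure D3:**
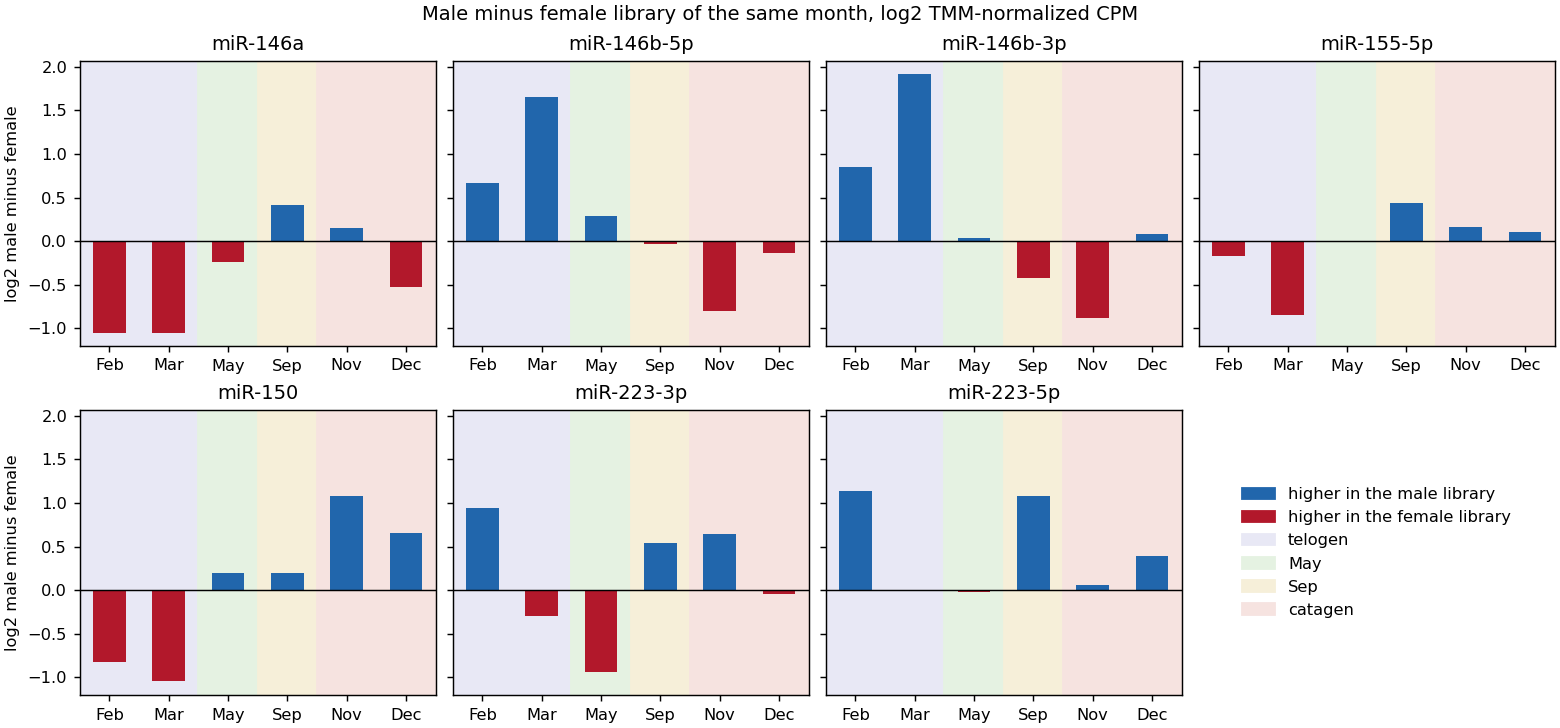
Log2 difference of the male from the female library of each month after TMM (vertical axis, common to all panels), blue above and red below 0, with 1 library of each sex per month. miR-150 runs from -0.82 and -1.04 in telogen to 1.08 and 0.66 in catagen, and the excess of both miR-146b arms in the male library is largest in March.

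miR-342-3p, which like miR-150 is abundant in lymphocytes, was the other called miRNA of the lymphoid list in this test, with -1.096 (adjusted p = 0.0498). It had 117 (female) and 72.5 (male) TPM in February, 105.6 and 78.4 in March, 64.2 and 99.7 in November, and 78.5 and 75.9 in December. In December the male library was thus not the higher one in TPM. After TMM, with factors of 0.916 (female) and 0.865 (male), it was slightly the higher one. The third tested miRNA of this list, miR-181b-5p, had 0.44, opposite in sign (adjusted p = 0.354). Of the endothelial miR-126 arms miR-126-3p had -0.87 (adjusted p = 0.0449), under the 2-fold limit and of the same sign as miR-150, and miR-126-5p had -0.34 (adjusted p = 0.637). The list had a median of -0.60 with no call, and the red blood cell miRNAs a median of 1.15 with no call, against 0.12 over all tested miRNAs. Their part in the miR-150 difference was not tested.

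Ratios between the miRNAs within a library do not depend on the scaling of libraries. Of 8 ratios compared between telogen and catagen (n = 4 each), 3 had groups that did not overlap and the smallest p that this design allows, 0.0286 (exact permutation test, two-sided), but an adjusted p of 0.0762, so none passed the correction. The ratio of miR-146a to miR-146b-5p was 3.51 times higher in telogen, a difference of 1.81 on the log2 scale. miR-146a made up 16.0% of the sum of both in female February and 25.3% in female March, 5.47% and 4.96% in the male libraries of these months, and between 2.29% and 4.35% in the catagen libraries. The male telogen libraries thus stood close to May (6.18% and 4.36%), and the female telogen libraries apart from all others.

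The ratio of miR-146a to miR-150 was 2.04 times higher in telogen, and that of miR-155-5p to miR-223-3p 3.37 times higher in catagen. The log2 ratio of miR-150 to miR-223-3p was 1.31 ± 0.92 in telogen and 2.72 ± 0.57 in catagen (exact p = 0.0571, adjusted p = 0.114). That of miR-146a to miR-223-3p, the pair that was higher in telogen, differed by -0.38 (exact p = 0.543, adjusted p = 0.62). For miR-223-3p to miR-223-5p the difference was 0.53 and for miR-155-5p to miR-150 -0.34 (exact p = 0.2, adjusted p = 0.267 for each).

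**Figure D4:**
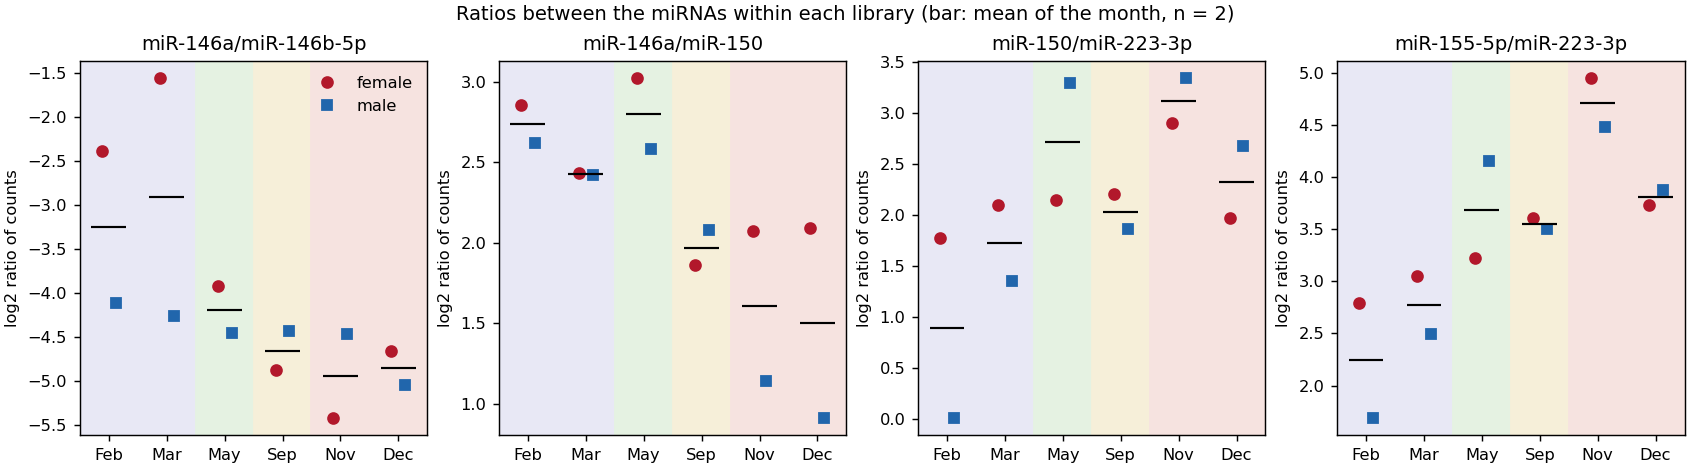
Log2 ratio of the counts of 2 miRNAs in each library (vertical axes, one scale per panel) by month, with circles for female and squares for male libraries and bars for the mean of the month (n = 2). The ratio of miR-146a to miR-146b-5p is highest in the female March library (-1.56) and lowest in the female November library (-5.42).

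Across the 12 libraries 35 correlations were computed on the log2 scale after TMM: 21 among the members, and each member with miR-451-5p and with miR-126-3p. For 3 of them Pearson's r had an adjusted p below 0.05 (100000 permutations). chi-miR-146b-5p and chi-miR-146b-3p had r = 0.98 and rho = 0.98 (permutation p = 1e-05 for both, the smallest these permutations can give, adjusted p = 0.00035). They kept r = 0.90 without the female February and female March libraries and 0.97 within the phases. chi-miR-223-3p and chi-miR-223-5p had r = 0.82 (permutation p = 0.00123, adjusted p = 0.0144) and rho = 0.85 (permutation p = 0.00104, adjusted p = 0.0182), with 0.63 without the male May and male February libraries and 0.49 within the phases. chi-miR-155-5p and the endothelial miR-126-3p had r = 0.90 (permutation p = 0.00033, adjusted p = 0.00577) and rho = 0.81 (permutation p = 0.00212, adjusted p = 0.0247), with 0.81 without the May libraries and 0.76 within the phases. On log2 TPM, without the TMM factors, this r was 0.62 and its permutation test no longer passed the threshold (adjusted p = 0.125).

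chi-miR-146a and chi-miR-146b-5p had r = -0.60 (permutation p = 0.0361, adjusted p = 0.157) and rho = -0.35 (permutation p = 0.267, adjusted p = 0.44). The value was 0.23 without the female March and female February libraries, so the pooled relation rested on those libraries. It was -0.73 within the phases, with those libraries included, so that value may rest on them too. chi-miR-150 had r = 0.73 with miR-126-3p (permutation p = 0.00822, adjusted p = 0.0719) and rho = 0.78 (permutation p = 0.00437, adjusted p = 0.0382), with 0.63 without the male November and female March libraries and 0.87 within the phases. chi-miR-223-3p had r = 0.58 with miR-451-5p (permutation p = 0.0462, adjusted p = 0.157) and rho = 0.59 (permutation p = 0.048, adjusted p = 0.187), with 0.57 without the male May and male February libraries and 0.30 within the phases. The libraries of a phase fall into groups, so the values within phases are the nearer description of how libraries vary beside the phase. Other pairs also had large values within the phases, in both directions. chi-miR-150 had -0.86 with chi-miR-146b-5p (pooled r = -0.58), and chi-miR-155-5p -0.85 with chi-miR-146b-3p (pooled r = -0.29). chi-miR-146a had 0.80 with miR-126-3p (pooled r = -0.16).

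Leaving the members themselves out, the miRNAs whose levels were most like each member over the 12 libraries (Pearson's r, log2 scale after TMM) differed between the members. For chi-miR-146a they were miR-21-5p (0.87), another inflammation-induced miRNA, miR-455-5p (0.85) and miR-29a-3p (0.80). For chi-miR-146b-5p they were miR-128-3p (0.91), a candidate listed as novel_463 (0.90) and miR-130b-5p (0.90), and for chi-miR-146b-3p miR-130b-5p (0.93), novel_463 (0.92) and novel_697 (0.90). For chi-miR-155-5p they were novel_131 (0.92), miR-143-3p of the mesenchyme list (0.91) and miR-28-3p (0.90). For chi-miR-150 they were miR-342-3p (0.74), novel_182 (0.74) and miR-126-3p (0.73). For chi-miR-223-3p they were the mesenchymal miR-214-3p (0.80), miR-28-5p (0.76) and miR-215-5p (0.72), and for chi-miR-223-5p miR-215-5p (0.83), miR-7-3p (0.67) and miR-214-3p (0.67).

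Lists of related miRNAs and of other cell types were tested in the same fit. Of the inflammation list (miR-21-3p, miR-21-5p, miR-9-5p) 2 of 3 were tested, and 1 was called higher from May to September and from May to catagen, miR-9-5p with 1.12 (adjusted p = 0.026) and 1.17 (adjusted p = 0.0116). miR-21-5p was not called in any comparison between phases. Of the lymphoid list 3 of 5 were tested, and none was called between phases. Of the myeloid list 4 of 4 were tested, and the calls between phases were those of the miR-223 arms, with miR-424-5p called in addition between months (adjusted p = 0.0447). Of 6 epidermal miRNAs miR-200a was called higher from May to September and miR-141 lower from telogen to September. Of 9 dermal mesenchyme miRNAs 1, miR-143-3p, was called higher from May to September and from May to catagen. Of 5 muscle miRNAs 4 were tested, and 1, miR-1, was called higher in the same comparisons. Between the 6 months 7 of 9 dermal mesenchyme, 2 of 6 epidermal and 1 of 2 red blood cell miRNAs were called, against 31.7% of all tested, and no inflammation, lymphoid, endothelial or muscle miRNA. From catagen to telogen, where miR-146a and miR-223-3p were higher, no epidermal, mesenchyme, endothelial or muscle miRNA was called, and the medians were 0.17, 0.28, 0.06 and 0.22. The medians cover changes in both directions that passed the adjusted p but not the 2-fold limit. Of the epidermal list miR-141 was higher in telogen (0.91, adjusted p = 0.00803) and miR-203 lower (-0.57, adjusted p = 0.0124). Of the mesenchyme list miR-214-3p (0.76, adjusted p = 0.00163), miR-214-5p (0.63, adjusted p = 0.0131) and miR-199a-3p (0.55, adjusted p = 0.00873) were higher, and miR-145-5p (-0.85, adjusted p = 0.00613) and miR-143-3p (-0.55, adjusted p = 0.00873) lower. miR-21-5p (0.59, adjusted p = 0.00975) and miR-424-5p (0.66, adjusted p = 0.007) were higher as well. The part of these compartments in the miR-146a and miR-223 differences was not tested.

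In the RefSeq annotation of the goat assembly ARS1.2, MIR146A lay between ATP10B and PTTG1, MIR146B between MFSD13A and CUEDC2, MIR155 beside MRPL39 and MIR223 beside VSIG4. None of these precursors was next to that of another member. The study mapped its reads to another assembly, so gene neighbours are given without positions.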

How the data were processed

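Small RNA of secondary hair follicles was sequenced in 12 libraries, and groups were taken from the month and sex in the sample titles. The authors trimmed adapters, mapped reads to the goat genome CHIR_2.0 with Bowtie 0.12.9 and deposited whole-number counts per miRNA. They also deposited TPM values, which equalled each count scaled to the library total to within 0.005. How multiply mapping reads were counted is not given in the sources used here. Libraries of a month differed by more than sampling noise (chi-square per degree of freedom 70.0 to 666.7).

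Counts were fitted once over the 12 libraries with edgeR 4.0.16 in R 4.3.3 (TMM, quasi-likelihood test) after a filter of more than 5 CPM in at least 2 libraries, with phases as groups. Sex was tested with month as a term, and as an interaction with phase. Adjusted p below 0.05 and a 2-fold change defined a DE miRNA. Ratios took counts plus 1 and exact permutation tests, and correlations 100000 permutations (scipy 1.17.1). The script was tested on simulated counts. Alternatives were RLE, library totals, DESeq2 1.42.0, a likelihood-ratio test, no filter or one of 50 CPM, a fit of the compared groups alone, a block for sex, no fold limit and leaving out each library. The members and lists were chosen with earlier results of these data known. All 7 members are named, list miRNAs are given as counts with up to 4 named, and the 3 miRNAs most like each member are given. Single list miRNAs named for their change were singled out after their values were seen. The epidermal reference miR-205 was not analysed here. Sex and library cannot be told apart within a month. The labels carry no replicate numbers that pair libraries.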

Additional observations from a re-analysis of the deposited data

Results flagged for a closer look

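Within telogen chi-miR-223-3p had 95.73 TPM in the male February library, against 43.7 to 47.7 in the other telogen libraries, a gap larger than Dixon's 95% limit for 4 samples. It was 1 of 30 such checks, and chance flags about 1 in 20. Its difference between catagen and telogen was called with and without that library (1.36 and 1.04). The difference between the male and the female library changed between telogen and catagen for chi-miR-150 (-1.81), chi-miR-146b-3p (1.74) and chi-miR-146b-5p (1.59), each past the threshold of the test of that change. For chi-miR-155-5p both telogen months had less in the male library after TMM and both catagen months had more, and the change of -0.64 did not pass the test (adjusted p = 0.185).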

How the results depend on the processing

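Depth bears mainly on the miR-223 arms, whose lowest counts were 33 and 20. A filter of 50 CPM removed both from the tests, and with it 0 members were called from telogen to May, 0 from May to September, 1 from catagen to telogen and 0 between the 6 months. With 2 libraries in May and in September, leaving out 1 assumes that the other varies like the libraries of the other groups. The cause of the changes below was not tested.

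The number of members called from telogen to May (2) was 0 with library totals, no filter on low counts or only the 2 groups compared, and 0 to 4 when 1 library was left out. From May to September (1) the member called changed with library totals, from chi-miR-223-5p to chi-miR-146a. The number called there was 2 without a minimum fold change and 0 to 2 with a library left out. From catagen to telogen (2) it was 1 with sex as a block and 1 to 2 with a library left out. From telogen to September (0) it was 0 to 1. From May to catagen (0) it was 1 with library totals, no filter, the 50 CPM filter or only the 2 groups compared, 2 without a minimum fold change and 0 to 1 with a library left out. Between the 6 months (1) it was 2 with library totals, 3 with DESeq2, 4 with the likelihood-ratio test and 0 to 5 with a library left out. For the sex difference in telogen against catagen (3) it was 1 with RLE or no filter and 1 to 3 with a library left out. Correlations past the threshold (3) were 5 on log2 TPM and 15 as deviations from the phase means.

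Changes of sign were confined to values that were not called. With library totals these were chi-miR-146a from telogen to May (0.13), chi-miR-150 from May to September (-0.19), September to catagen (-0.010), catagen to telogen (0.28), telogen to September (-0.27) and May to catagen (-0.20), chi-miR-223-3p from May to catagen (-0.25) and chi-miR-155-5p between the sexes (0.040). With the 50 CPM filter they were chi-miR-146a from telogen to May (0.0051), chi-miR-150 from September to catagen (-0.011), catagen to telogen (0.024) and telogen to September (-0.013), and chi-miR-155-5p between the sexes (0.041, and 0.048 with no filter). With RLE and DESeq2 alike, chi-miR-150 had 0.033 from catagen to telogen and -0.072 from telogen to September. The log2 ratio of the miR-146b arms differed by -0.0075 when medians were compared.

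With 1 library left out, chi-miR-146a ranged from -0.26 to 0.12 from telogen to May. From May to September the ranges were -0.42 to 0.084 for chi-miR-146b-5p and -0.46 to 0.0061 for chi-miR-146b-3p. From September to catagen they were -0.23 to 0.20 for chi-miR-155-5p and -0.18 to 0.20 for chi-miR-150, which also ranged from -0.29 to 0.15 from catagen to telogen and from -0.17 to 0.26 from telogen to September. chi-miR-223-5p ranged from -0.87 to 0.23 from telogen to September and chi-miR-223-3p from -0.12 to 0.63 from May to catagen. Between the sexes the ranges were -0.030 to 0.46 for chi-miR-223-3p, -0.024 to 0.47 for chi-miR-146b-3p, -0.15 to 0.22 for chi-miR-155-5p and -0.16 to 0.37 for chi-miR-150. For the sex difference in telogen against catagen they were -0.43 to 0.77 for chi-miR-223-3p and -0.0041 to 0.73 for chi-miR-223-5p. The log2 ratios ranged from -0.0096 to 0.080 for miR-146b-5p to miR-146b-3p and from -0.63 to 0.036 for miR-146a to miR-223-3p.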
